A study of Mus musculus with 22 samples.

Results

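The genes described here are 34 genes of fatty acid oxidation and of its control by the nuclear receptor PPARα in mouse liver. They were taken as the probe sets annotated to 1 gene symbol that is one of the 34 names. Of these genes 33 were measured, by 57 probe sets, among 18194 genes with a probe set of their own in all. Acsl1, a long chain acyl-CoA synthetase, was not analysed here. The members comprise 14 mitochondrial enzymes, 6 peroxisomal enzymes, 3 enzymes found in both organelles, the genes of fatty acid uptake, binding and activation, a kinase, a peroxisomal membrane protein, a pantetheinase and the regulators Ppara and Creb3l3.

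Male C57BL6 mice, 8 weeks old at the start, received daily intraperitoneal injections of diclofenac sodium, a non-steroidal anti-inflammatory drug, at 30 mg/kg, or of the same quantity of saline. The livers were collected on day 1 (24 h), day 3 (72 h) or day 14, so that day 1 follows a single dose and the later days repeated dosing. Total RNA of each liver was hybridised to 1 Affymetrix Mouse 430 2.0 array, with 3 arrays in each of the saline and diclofenac groups of days 1 and 3 and 5 arrays in each group of day 14, whereas the labels speak of 5 mice per group. All mice were of one strain with no altered allele, and each array was treated as 1 animal, so that p-values measure the spread between these livers.

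Liver burns fatty acids in mitochondria, where carnitine palmitoyltransferases bring long chain acyl groups across the membranes and a cycle of dehydrogenases, hydratases and thiolases shortens them, and it sends very long chain acids to peroxisomes first. PPARα senses fatty acids, pairs with the retinoid X receptor and binds repeats of the hexamer AGGTCA beside its target genes, which include enzymes of both organelles. In fasting the acetyl-CoA so made feeds the synthesis of ketone bodies, and mice respond to PPARα ligands with a marked rise of peroxisomal enzymes.

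Promoters are shown for Fabp1, the only member with a spaced pair of near-hexamers, for Cpt1a, which holds a single hexamer, and for Fabp2, which was called in the comparison of diclofenac with saline and holds none. The sequences are the 250 bases before the RefSeq start on GRCm38.p6, read on the gene's strand, and capitals mark AGGTCA on either strand and, in Fabp1, the spaced pair, which holds one of its hexamers. Fabp1 lies at chr6:71199629-71199878, Cpt1a at chr19:3323051-3323300 and Fabp2 at chr3:122894822-122895071, all on the plus strand.
Fabp1: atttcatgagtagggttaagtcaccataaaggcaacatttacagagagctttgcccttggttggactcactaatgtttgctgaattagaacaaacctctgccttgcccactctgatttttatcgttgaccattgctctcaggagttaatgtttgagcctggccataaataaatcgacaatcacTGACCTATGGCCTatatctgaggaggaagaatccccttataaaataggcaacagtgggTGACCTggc
Cpt1a: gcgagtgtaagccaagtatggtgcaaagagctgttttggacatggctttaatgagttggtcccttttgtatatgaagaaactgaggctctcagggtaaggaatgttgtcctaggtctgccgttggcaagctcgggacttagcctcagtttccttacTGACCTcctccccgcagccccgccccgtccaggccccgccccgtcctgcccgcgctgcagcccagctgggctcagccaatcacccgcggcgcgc
Fabp2: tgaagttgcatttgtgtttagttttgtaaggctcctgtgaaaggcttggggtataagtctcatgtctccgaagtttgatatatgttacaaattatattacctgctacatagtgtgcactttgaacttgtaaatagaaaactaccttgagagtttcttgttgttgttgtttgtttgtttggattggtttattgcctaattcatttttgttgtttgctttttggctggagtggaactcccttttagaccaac

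The tandem repeat called DR1, a pair of AGGTCA hexamers with any 1 base between them, searched on both strands, was present in the windows from 250 bases before the start to 50 after it of 0 of the 29 of 34 members with a promoter entry, Acsl1 among them, and of 13 of 27025 genes, or 0.0481%. A single AGGTCA was present in 9 of 29 members, namely Creb3l3, Cpt1a, Acadvl, Acadm, Acot3, Acot4, Slc27a2, Cd36 and Fabp1, or 31.0%, against 18.1% of all genes. A looser form, a pair of AGGNCA with any 1 base between them, which was searched after the results were seen and overlaps the others, was found in Fabp1, 67 bases before the start, and in 0.451% of all genes. Such a match is a description of the letters in these windows, and binding was not tested. The entries for Acaa2, Vnn1, Crat, Decr1 and Hsd17b4 were not used here.

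A pair of diclofenac livers, picked out after the data were seen, had low member signals together with high neutrophil marker signals. The day 14 diclofenac liver of replicate 3 had the lowest signal of its day for 28 of 33 members, and 18 of 33 members lay more than 1 log2 unit below the saline mean, against 10.9% of all genes in that liver. In the day 1 diclofenac liver of replicate 2, 18 of 33 members were lowest of the day and 4 lay more than 1 log2 unit below, against 7.04% of all genes. A further liver, the day 3 diclofenac liver of replicate 1, was lowest of its day for 22 of 33 members. There 1 member lay more than 1 log2 unit below, against 3.6% of all genes. Its median over the members, minus the saline mean of the day, was -0.28, against -0.25 in the day 1 liver and -1.14 in the day 14 liver. It was kept when the pair was left out. The pair of livers held the most signal of neutrophil markers, summed over 8 genes. The sum was 23917 in the day 14 liver against 695 to 2678 in the other diclofenac livers and 302 to 491 in saline livers, and 25473 in the day 1 liver against 1601 and 1869 in the other diclofenac livers and 610 to 1051 in saline livers. Macrophage markers, summed over 9 genes, reached 81043 in the day 14 liver against 7646 to 11571 in the other diclofenac livers. In both livers hepatocyte markers had the highest sum of their day, at 796567 and 426257, and each of the 8 genes lay above the array's median in every liver of the series. The 18S signal of the day 14 liver, at 16.15 on the log2 scale, was the highest of all 22 arrays, against 15.12 to 15.80 in the others of day 14, whereas that of the day 1 liver, 12.24, lay within the range of its day. The array's hybridisation controls were also highest of the day in both livers, at 11.85 and 11.96 on the log2 scale against 11.29 to 11.79 and 11.47 to 11.67 elsewhere. The part of these markers, 18S signals and controls in the results below was not tested. In bulk liver, fewer hepatocytes and less RNA per hepatocyte cannot be told apart. Pearson correlations between arrays of a group, across genes, lay between 0.898 and 0.945.

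Diclofenac livers had lower mean signals than saline livers for most members at every time, but few differences passed the test across all genes. The mean was lower for 24 of 33 members at day 1, 27 at day 3 and 32 at day 14, where the share of all tested genes with a lower mean was 49.8%, 48.6% and 52.2%. The median log2 difference of the members, diclofenac minus saline, was -0.09, -0.20 and -0.46, against 0.00, 0.01 and -0.01 over all genes. With limma and Benjamini-Hochberg adjustment over all genes tested, 0 of 33 members passed an adjusted p of 0.05 at day 1 (0.0% of all genes), 0 at day 3 (0.202% of all genes) and 0 at day 14 (0.0%). At an unadjusted limma p under 0.05, 5 members were lower and 1 higher at day 1, 8 lower and 1 higher at day 3, and 14 lower and 0 higher at day 14, against 6.34%, 5.01% and 5.02% of all genes that were lower by this rule and 6.65%, 5.84% and 5.81% that were higher. By the methods' t-test on log2 signals with a fold of at least 1.5, 0 members passed at day 1 (1.46% of all genes), 2 at day 3 (2.49%) and 4 at day 14 (2.39%), and 0 after Benjamini-Hochberg adjustment. Over the mean of the effects of the 3 days, 2 of 33 members fell, Fabp2 and Acadl, and 0 rose, where 0.442% of all genes fell and 1.24% rose. In that mean 32 of 33 members were lower, against 50.8% of all genes, with a median of -0.24. The sums of neutrophil and of macrophage markers had higher medians in the same diclofenac groups. At day 3 the neutrophil sum was 2064 to 3513 in diclofenac against 389 to 594 in saline livers and the macrophage sum 24224 to 35046 against 20897 to 22902, at day 1 the macrophage sum was 27515 to 39658 against 16132 to 26010, and at day 14 it overlapped outside the replicate 3 liver. Of the 8 neutrophil markers, 5 lay above the array's median in all diclofenac livers of day 3 and 2 in all saline livers. The log2 differences of day 3 ran from 0.01 (Ngp) to 4.05 (Prtn3) in the neutrophil markers tested. In macrophage markers they ran from 0.10 (Clec4f) to 1.21 (Marco), and the smallest limma adjusted p in both lists was 0.132. T and B cell sums overlapped, at 189 to 474 in diclofenac against 268 to 306 in saline livers at day 1. They were 195 to 435 against 169 to 213 at day 3 and 171 to 265 against 155 to 299 at day 14. The part of these markers in the lower member signals was not tested.

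More members passed once the pair of low livers was left out. The pair was chosen after the data were seen, with these same member signals in view. Counts and p-values without the low livers, here and below, are therefore descriptions and no independent test. Without them 29 of 33 members were lower in the mean of the 3 days, with a median of -0.18, and 9 members fell (Acot1, Fabp2, Eci1, Ehhadh, Cpt2, Acadl, Acaa1b, Decr2 and Etfdh), where 0.94% of all genes fell. Leaving out the day 14 liver of replicate 3 alone gave 10 members, with Bdh1 in addition. At day 14 alone the median without that liver was -0.28, 32 of 33 members were lower and 1, Cpt2, fell, where 0.366% of all genes did.

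**Figure D1:**
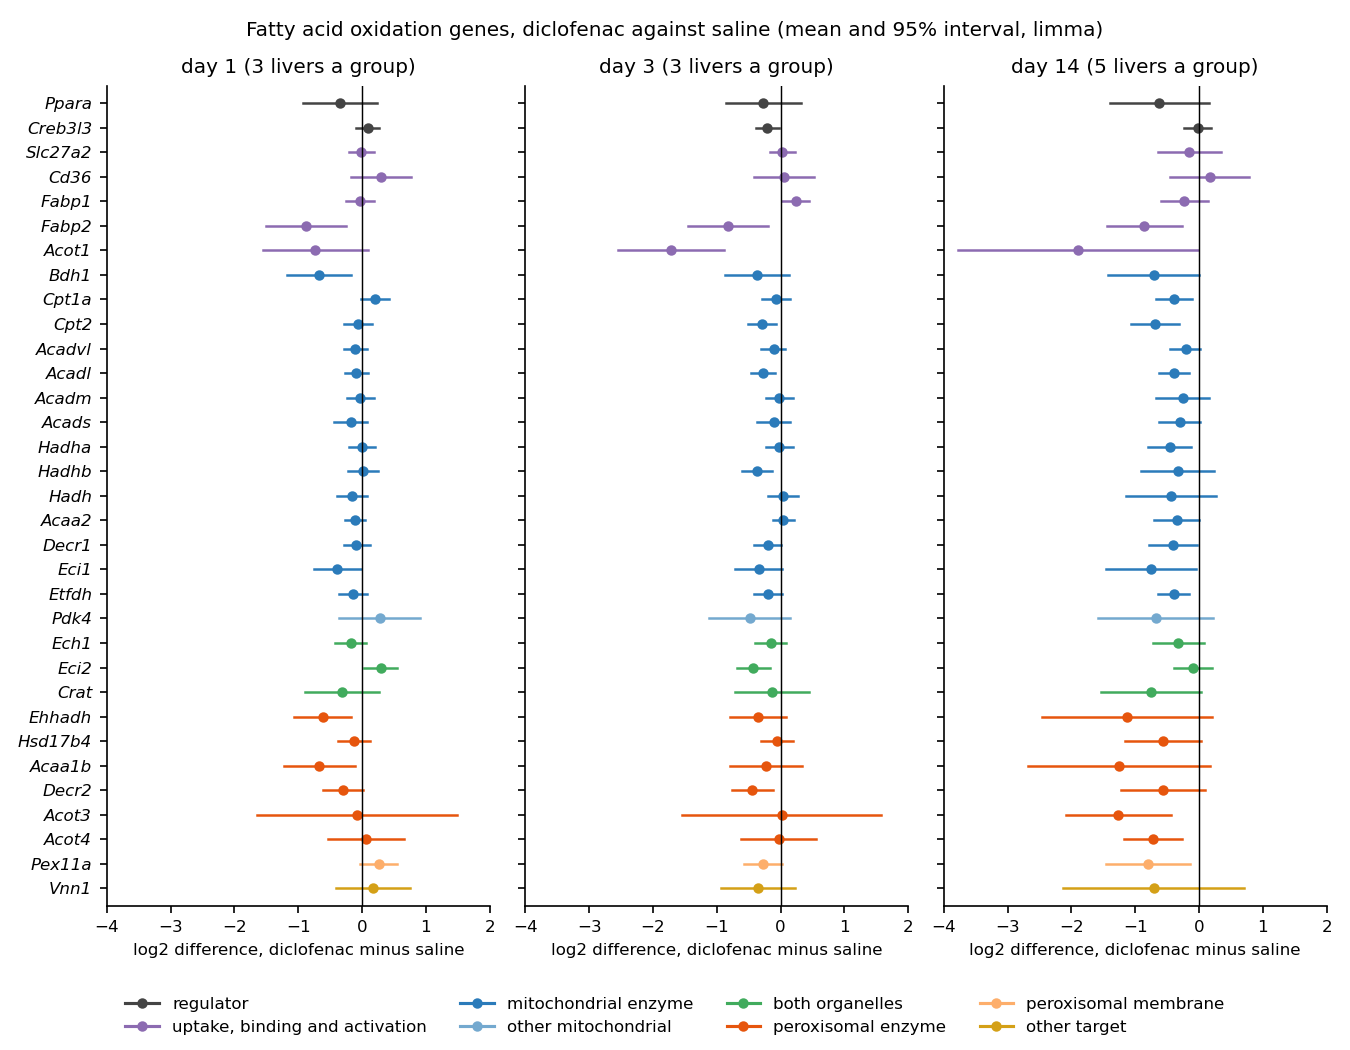
Log2 difference between diclofenac and saline livers for each of 33 members at day 1, day 3 and day 14, with points at the difference of group means and lines at the 95% interval from limma, coloured by class. Most points lie left of 0, 24 at day 1, 27 at day 3 and 32 at day 14, and the widest interval of day 14 is that of Acot1, from -3.77 to -0.02.

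Among the regulators, Ppara, the receptor itself, had lower means with diclofenac at every time and overlapping livers. Its signal was 3401, 5876 and 4886 in saline livers and 2560, 3201 and 5779 in diclofenac livers at day 1, and 5265, 4210 and 3653 against 2979, 4184 and 3715 at day 3. At day 14 it was 3128, 4385, 2943, 3304 and 4031 in saline and 3303, 2721, 789, 2312 and 3725 in diclofenac livers, the lowest value being that of the replicate 3 liver. The log2 difference at day 14 was -0.63 ± 0.354 (SE) and -0.25 ± 0.153 without that liver, and over the 3 days it was -0.41 ± 0.216 (SE) with a limma adjusted p of 0.311. The 3 Ppara probe sets were lower at each time. Creb3l3, a liver transcription factor of the fasting response that works with PPARα, differed by 0.09 at day 1, -0.21 at day 3 and -0.02 at day 14. Its diclofenac livers lay above the saline livers at day 1 (7707, 8126 and 7781 against 6976, 7645 and 7544) and below them at day 3 (7090, 7707 and 8625 against 8768, 9146 and 9119), and its adjusted p was 0.662 and 0.373 in limma.

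Fabp2, the intestinal type of fatty acid binding protein, was the member with the smallest adjusted p in the mean of the 3 days. Its signal was 4155, 5651 and 5271 in the saline livers of day 1 and 4137, 1445 and 3355 in the diclofenac livers. At day 3 it was 5493, 6335 and 6974 against 3138, 3816 and 3627, and at day 14 8360, 10662, 7431, 8967 and 7352 against 4488, 4773, 2379, 5255 and 8412. The groups did not overlap at days 1 and 3, and at day 14 only the replicate 5 diclofenac liver reached the saline range. The log2 difference was -0.88 ± 0.288 (SE), -0.83 ± 0.288 (SE) and -0.86 ± 0.267 (SE) at the 3 times, or 1.83-, 1.77- and 1.81-fold lower, and none of the 3 passed by itself (limma adjusted p 0.304, 0.305 and 0.291). The mean of the 3 effects was -0.85 ± 0.183 (SE), or 1.81-fold lower, with a limma adjusted p of 0.0175. It was -0.62 ± 0.108 without the pair of low livers (adjusted p 0.00229), and it lost the call, at an adjusted p of 0.052, without the day 3 diclofenac liver of replicate 1. Of 7 enterocyte markers measured, Vil1, Cdh17, Lct and Krt20 lay above the array's median in 0 of 22 arrays, Cdx2 in 3 and Alpi in 10. Apoa4, an apolipoprotein made in liver as well as intestine, lay above it in 22 of 22. Apoa4 made up most of the enterocyte sum, which was lower in the diclofenac livers of day 14 (6638 to 19804) than in the saline livers (21858 to 31441) and higher in those of day 3 (6981 to 7728 against 4534 to 4835), and its part in the Fabp2 result was not tested.

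Acot1, a cytosolic thioesterase that splits long chain acyl-CoA and a PPARα target, had the largest difference of the members at days 3 and 14. Its signal was 1180, 1494 and 1413 in saline and 1481, 373 and 997 in diclofenac livers at day 1, where the groups overlapped. At day 3 it was 2243, 2659 and 2750 against 555, 780 and 1077, so that every diclofenac liver lay below every saline liver. At day 14 it was 7000, 10564, 7382, 9621 and 8346 against 3968, 4480, 143, 3323 and 7262, with the replicate 3 liver far below the rest. The log2 difference was -0.73 ± 0.382 (SE), -1.71 ± 0.382 (SE) (3.28-fold lower) and -1.90 ± 0.857 (SE), with limma adjusted p of 0.441, 0.111 and 0.457. Without the low livers the differences were -0.16 ± 0.237, -1.71 ± 0.212 and -0.90 ± 0.198, with limma adjusted p of 0.935, 0.00247 and 0.0554. Over the 3 days the difference was -1.44 ± 0.475 (SE) with an adjusted p of 0.123 and did not pass, and without the low livers it was -0.92 ± 0.14 with an adjusted p of 0.000684. Acot1, Acot3 and Acot4 are close copies of one another. Each was read by a probe set annotated to that gene alone, and whether these probe sets also read the other copies was not tested.

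The abundant carriers of fatty acids differed little in mean at most times. Fabp1, the main fatty acid binding protein of hepatocytes and the gene with the near-repeat above, had signals of 52293, 67549 and 61633 in saline and 73168, 66331 and 73217 in diclofenac livers at day 3, a log2 difference of 0.24 ± 0.0985 (SE), the largest rise in mean of that day (limma adjusted p 0.402). At day 1 it differed by -0.03 and at day 14 by -0.23. Slc27a2, a very long chain acyl-CoA synthetase and transporter, differed by -0.01, 0.03 and -0.15, and by -0.04 over the 3 days with a 95% interval from -0.29 to 0.21. Cd36, the fatty acid translocase, had higher mean signals at each time, and it alone of the members had a higher mean at day 14 and over the 3 days. Its signals were 990, 989 and 989 against 830, 1677 and 1294 at day 1, 1189, 1228 and 1072 against 1416, 1357 and 924 at day 3, and 878, 1187, 1585, 1272 and 1399 against 1310, 789, 2515, 1066 and 1889 at day 14. The highest value was that of the replicate 3 liver, the groups overlapped at each time, and the log2 difference over the 3 days was 0.18 ± 0.171 (SE) (limma adjusted p 0.608) and 0.03 ± 0.142 without the low livers. One of its 3 probe sets was lower in that mean.

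**Figure D2:**
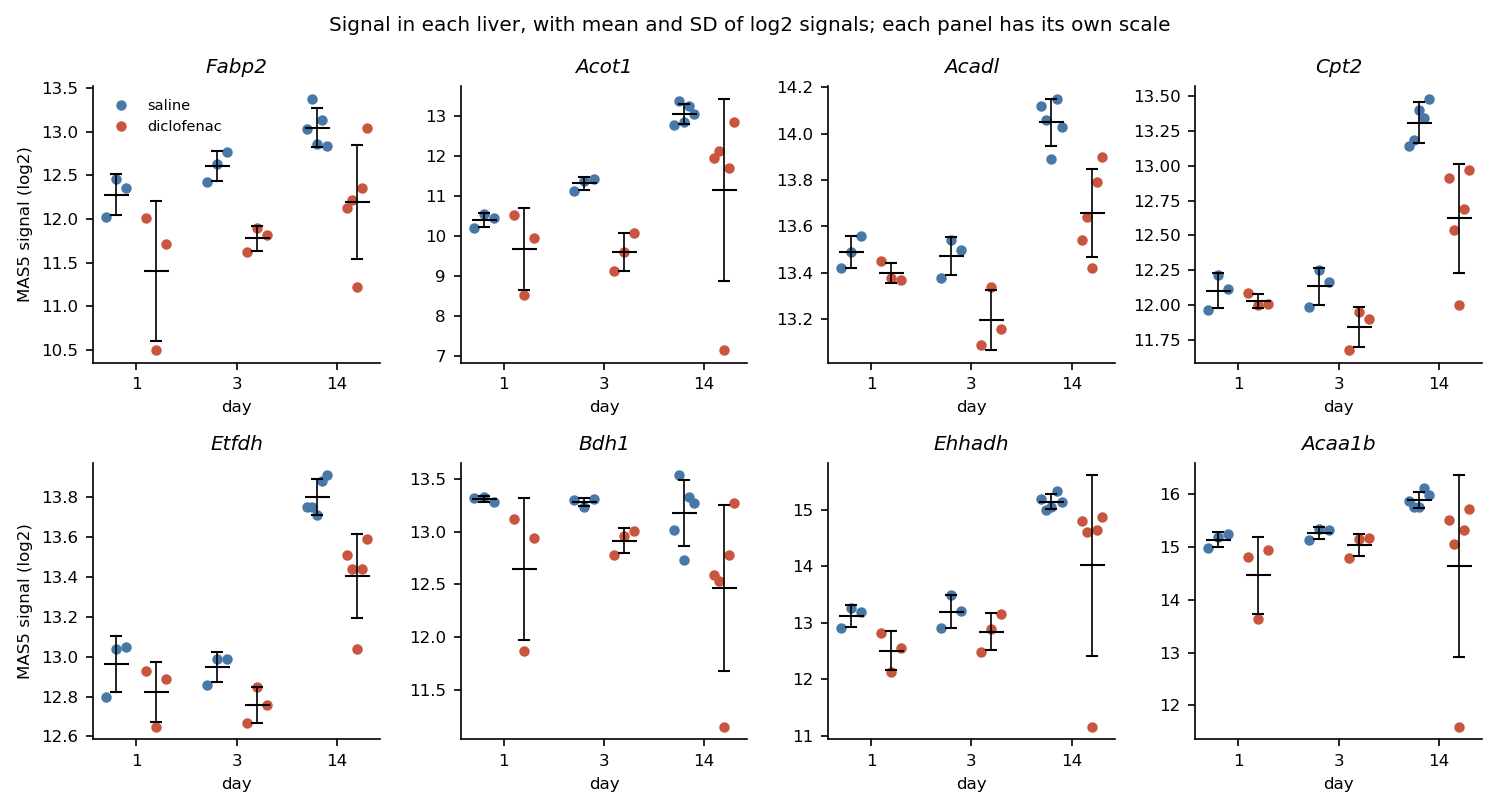
MAS5 signal on the log2 scale in each liver for 8 members, by day, with saline and diclofenac livers as points and the mean and SD of log2 signals as black bars; each panel has its own scale. The diclofenac livers of Fabp2 lie below the saline livers at days 1 and 3, those of Cpt2 and Etfdh at days 3 and 14, and those of Ehhadh and Acaa1b at days 1 and 14, where 1 liver of each lies far below the rest.

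Of the 14 mitochondrial enzymes, 12 had a lower mean at day 1, 12 at day 3 and 14 at day 14, with class medians of -0.10, -0.15 and -0.40 on the log2 scale. Acadl, the long chain acyl-CoA dehydrogenase that opens the cycle for long chain acyl-CoA, was the one that fell over the 3 days. Its signals were 10963, 11514 and 12066 in saline and 11193, 10661 and 10562 in diclofenac livers at day 1. They were 10652, 11904 and 11605 against 8723, 10394 and 9177 at day 3, with no overlap, and 17778, 17096, 15230, 18137 and 16773 against 11905, 12752, 10929, 14138 and 15325 at day 14, where the highest diclofenac liver just passed the lowest saline liver. The difference was -0.09, -0.27 and -0.39 at the 3 times and -0.25 ± 0.0608 (SE) over them, or 1.19-fold lower, with a limma adjusted p of 0.0346. Acadl was lower under each of 32 other settings of the processing and passed in 15 of them, and without the low livers it was -0.23 ± 0.0548 with an adjusted p of 0.0253. A second Acadl probe set, above the array's median on only 3 of 22 arrays, differed by 0.45, -0.85 and -0.73 at the 3 times. With the mean of all probe sets the limma adjusted p of Acadl was 0.298.

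Cpt2, the carnitine palmitoyltransferase of the inner mitochondrial membrane, had the smallest adjusted p of the members at day 14, with signals of 9046, 9293, 10782, 10382 and 11430 in saline and 7721, 5943, 4084, 6620 and 8024 in diclofenac livers. The groups did not overlap, which alone fixes the exact permutation p at 0.00794 (two-sided, unadjusted), the smallest that 5 against 5 livers allow. The log2 difference of -0.69 ± 0.171 (SE), or 1.61-fold lower, had a limma adjusted p of 0.196. Without the replicate 3 liver it was -0.53 ± 0.107 and passed, with an adjusted p of 0.0395. At day 3 its signals were 4073, 4855 and 4608 against 3279, 3958 and 3812, again without overlap, and at day 1 4006, 4761 and 4443 against 4362, 4099 and 4122, with overlap. A second Cpt2 probe set of low signal differed by 0.60 at day 14, the opposite way. Cpt1a, its partner on the outer membrane and the step at which mitochondrial oxidation is controlled, differed by 0.20 at day 1 and -0.07 at day 3. At day 14 its signals were 18215, 16118, 14409, 15368 and 16332 in saline and 12842, 12853, 9070, 12735 and 14395 in diclofenac livers, with no overlap, a log2 difference of -0.39 ± 0.128 (SE) and a limma adjusted p of 0.32. Its other 2 probe sets were higher by 0.49 and 0.34 at day 1 and lower by the log2 differences -0.20 and -0.25 at day 14.

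Etfdh, which passes electrons from the acyl-CoA dehydrogenases to ubiquinone, had diclofenac livers below the saline livers at days 3 and 14. The signals were 7455, 8132 and 8149 against 6531, 7359 and 6915 and 13816, 13794, 13416, 15094 and 15386 against 11652, 11079, 8403, 11131 and 12356, and at day 1 they overlapped (7109, 8434 and 8485 against 7783, 6408 and 7582). The log2 difference over the 3 days was -0.24 ± 0.0663 (SE), with a limma adjusted p of 0.063, or 0.0431 without the low livers. Bdh1, which makes the ketone body 3-hydroxybutyrate, had no overlap at days 1 and 3. Its signals were 10241, 10330 and 9974 in saline and 8928, 3744 and 7856 in diclofenac livers at day 1 and 10082, 9693 and 10168 against 7022, 7995 and 8251 at day 3, the saline livers lying close together. At day 14 they were 8332, 11937, 6783, 10315 and 9871 against 6159, 5931, 2273, 7049 and 9896 and overlapped. The log2 difference over the 3 days was -0.58 ± 0.195 (SE) (adjusted p 0.127 in limma) and -0.34 ± 0.098 without the low livers.

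The other mitochondrial enzymes spanned a range from -0.39 (Eci1) to 0.02 (Hadhb) at day 1, from -0.37 (Hadhb) to 0.04 (Acaa2 and Hadh) at day 3, and from -0.75 (Eci1) to -0.21 (Acadvl) at day 14. Eci1, an isomerase for unsaturated acids, had signals of 9041, 9175 and 9071 in saline and 6309, 7791 and 7545 in diclofenac livers at day 3, without overlap. At day 14 they were 11123, 12533, 9476, 11782 and 10691 against 7382, 8400, 2386, 8243 and 10057, where the replicate 3 liver was 4.64-fold below the saline mean. Hadh, the short chain hydroxyacyl-CoA dehydrogenase, had signals of 28031, 30930, 24812, 28445 and 27394 against 23803, 23773, 7611, 24826 and 34094 at day 14, so that its lower mean came with 1 liver at 7611 and 1 at 34094, above every saline liver. At day 3 its signals were 28557, 31718 and 29471 against 28928, 32758 and 30676 and those of Acaa2, the mitochondrial thiolase, 25346, 27306 and 27488 against 27319, 28071 and 27134, both overlapping. Hadha and Hadhb, the subunits of the trifunctional protein, differed by -0.46 and -0.33 at day 14, Acadm and Acads, for medium and short chains, by -0.25 and -0.30, and Decr1, a dienoyl-CoA reductase, by -0.41. Pdk4, a mitochondrial kinase that holds back the oxidation of pyruvate and is a fasting target of PPARα, was low in signal at days 1 and 3. It was 196, 211 and 196 in saline and 171, 388 and 217 in diclofenac livers at day 1, and 175, 294 and 174 against 128, 161 and 159, without overlap, at day 3. At day 14 it was 390, 993, 674, 1073 and 1079 against 405, 315, 1313, 290 and 584, and here the replicate 3 liver was the highest of all 10. The log2 difference of -0.68 ± 0.414 (SE) at day 14 was -1.04 ± 0.298 without that liver (limma adjusted p 0.564 and 0.137).

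Of the 6 peroxisomal enzymes, 5 had a lower mean at day 1, 5 at day 3 and 6 at day 14, with class medians of -0.21, -0.14 and -0.93. Ehhadh, the bifunctional enzyme of the peroxisomal cycle and a classical PPARα target, had signals of 7652, 9890 and 9323 in saline and 7247, 4468 and 6022 in diclofenac livers at day 1, with no overlap. They were 7621, 11507 and 9420 against 5734, 7602 and 9084 at day 3, with overlap, and 37574, 32716, 33947, 41579 and 36444 against 28454, 25089, 2290, 25631 and 29982 at day 14, with none. The replicate 3 liver was 15.9-fold below the saline mean, and the log2 difference of -1.13 ± 0.605 (SE) at day 14 was -0.42 ± 0.0933 without it (limma adjusted p 0.524 and 0.058). Acaa1b, the peroxisomal thiolase B, had signals of 32251, 37385 and 39097 against 28885, 12713 and 31704 at day 1, with no overlap, and 36053, 41446 and 41149 against 28493, 36294 and 36768 at day 3, with overlap. At day 14 they were 59732, 56000, 55577, 71145 and 64622 against 46717, 34087, 3096, 41096 and 54220, with the lowest liver 19.8-fold below the saline mean and the highest diclofenac liver still below every saline liver. Its log2 difference at day 14 was -1.26 ± 0.651 (SE), and -0.49 ± 0.13 without the replicate 3 liver. The exact permutation p was 0.00794 for both genes at day 14, two-sided and unadjusted. It is the smallest this design allows and follows from the lack of overlap.

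Acot3 and Acot4, thioesterases of the peroxisome, were low and variable in signal. Acot3 ranged from 181 to 1694 in the livers of day 1 and was 835, 1492, 897, 907 and 1440 in saline and 570, 592, 309, 187 and 928 in diclofenac livers at day 14, a log2 difference of -1.27 ± 0.378 (SE) (limma adjusted p 0.272). Acot4 was 710, 793, 521, 617 and 836 against 449, 432, 263, 400 and 605 at day 14, where 1 diclofenac liver reached the saline range, and differed by 0.06 and -0.03 at days 1 and 3. Decr2, the peroxisomal dienoyl-CoA reductase, was 3193, 3390 and 2883 in saline and 2132, 2627 and 2228 in diclofenac livers at day 3, without overlap, and differed by -0.57 at day 14 with the replicate 3 liver at 946. Hsd17b4, the second multifunctional enzyme of the peroxisomal cycle, differed by -0.12, -0.05 and -0.56. Pex11a, a membrane protein of dividing peroxisomes, differed by 0.26, -0.27 and -0.80, with 7929, 7343, 3998, 11221 and 5167 in saline and 6106, 3542, 2371, 3338 and 4908 in diclofenac livers at day 14. Both of its probe sets gave the same signs.

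The 3 enzymes found in both organelles were not alike. Eci2, an enoyl-CoA isomerase, had diclofenac livers above the saline livers at day 1 (11780, 14650 and 11691 against 9429, 10335 and 11439) and below them at day 3 (6683, 8038 and 8449 against 9744, 10285 and 10984), and overlapping groups at day 14 (11686, 9679, 13300, 9069 and 9581 against 12786, 10659, 11808, 12277 and 9166). The log2 differences were 0.29 ± 0.117 (SE) and -0.43 ± 0.117 (SE), and the difference between the effects of days 3 and 1, -0.71 ± 0.165 (SE), had a limma adjusted p of 0.881. Ech1, a dienoyl-CoA isomerase, differed by -0.18, -0.15 and -0.33. Crat, which makes acetylcarnitine, differed by -0.31, -0.13 and -0.75, and its 3 probe sets disagreed in sign at each time. Vnn1, a pantetheinase at the cell surface and a strong PPARα target, was 13372, 21063, 7131, 16247 and 12587 in saline and 12202, 12223, 1158, 9745 and 20691 in diclofenac livers at day 14. Its diclofenac livers held both the lowest and the second highest Vnn1 signal of that day, saline livers included. The log2 difference of -0.71 ± 0.647 (SE) was -0.01 ± 0.278 without the replicate 3 liver.

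The members whose groups did not overlap were also counted. At day 1, 4 members lay wholly below saline (Bdh1, Ehhadh, Acaa1b and Fabp2) and 2 above (Creb3l3 and Eci2), where 8.1% and 8.23% of all genes did so. At day 3, 16 lay wholly below and 0 above, against 9.21% and 10.8% of all genes, and at day 14, 5 lay below (Cpt1a, Cpt2, Etfdh, Ehhadh and Acaa1b) and 0 above, against 1.6% and 2.18%. With 3 against 3 livers the exact permutation p cannot go under 0.1. No member lay wholly below saline at all 3 times.

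**Figure D3:**
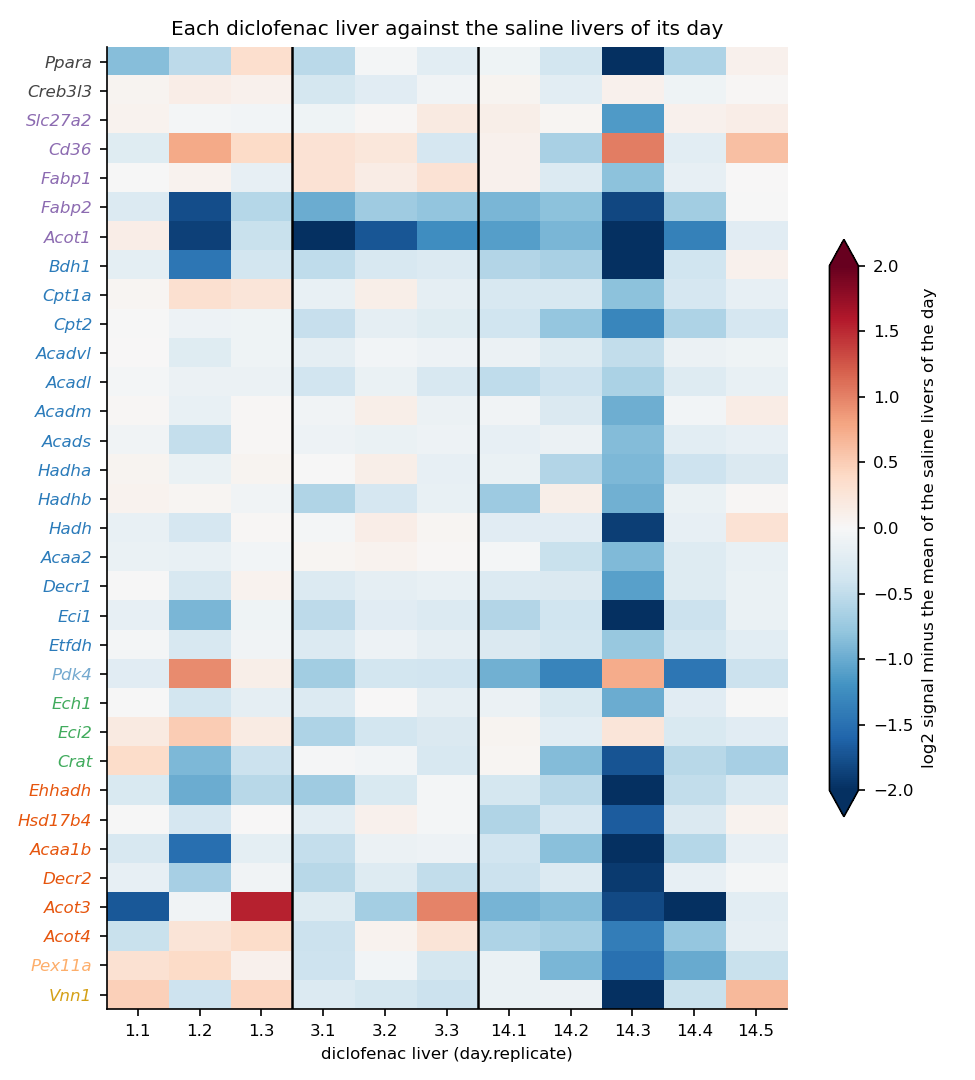
Log2 signal of each member in each of the 11 diclofenac livers minus the mean of the saline livers of the same day, with blue for lower and red for higher and the colour capped at 2 units. The column 14.3 is blue for most members and red for Cd36 and Pdk4, in the column 1.2 Cpt1a, Pex11a, Acot4 and Fabp1 lie above 0 while Bdh1 and Acot1 lie below it, and the row of Fabp2 lies at or below 0 in all 11 livers.

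Between diclofenac and saline livers, the comparison of mitochondrial with peroxisomal enzymes showed its widest gap at day 14. The peroxisomal median minus the mitochondrial median of log2 differences was -0.11 at day 1, 0.01 at day 3 and -0.53 at day 14, where the SD of the same gap between livers of a group was 0.14, 0.149 and 0.248. At day 14 the class medians of the diclofenac livers in replicate order were -0.28, -0.34, -0.93, -0.26 and -0.14 for mitochondrial enzymes and -0.52, -0.60, -1.86, -0.54 and -0.18 for peroxisomal enzymes. The peroxisomal value was the lower one in all 5 livers, whereas the saline livers lay between -0.14 and 0.10 and between -0.12 and 0.11. Without the replicate 3 liver the gap at day 14 was -0.20. At day 1 the diclofenac livers held -0.02, -0.20 and -0.06 for mitochondrial and -0.31, -0.51 and -0.04 for peroxisomal enzymes, and at day 3 -0.23, -0.12 and -0.16 against -0.45, -0.19 and -0.04. Counting the enzymes of both organelles as peroxisomal gave a class median of -0.72 at day 14. The saline livers used as reference also differed by class between days. From days 1 and 3 to day 14 their class median was 1.01 for peroxisomal and 0.40 for mitochondrial enzymes, against -0.06 over all genes. These are descriptions of 6 and 14 genes, with no test of the classes.

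**Figure D4:**
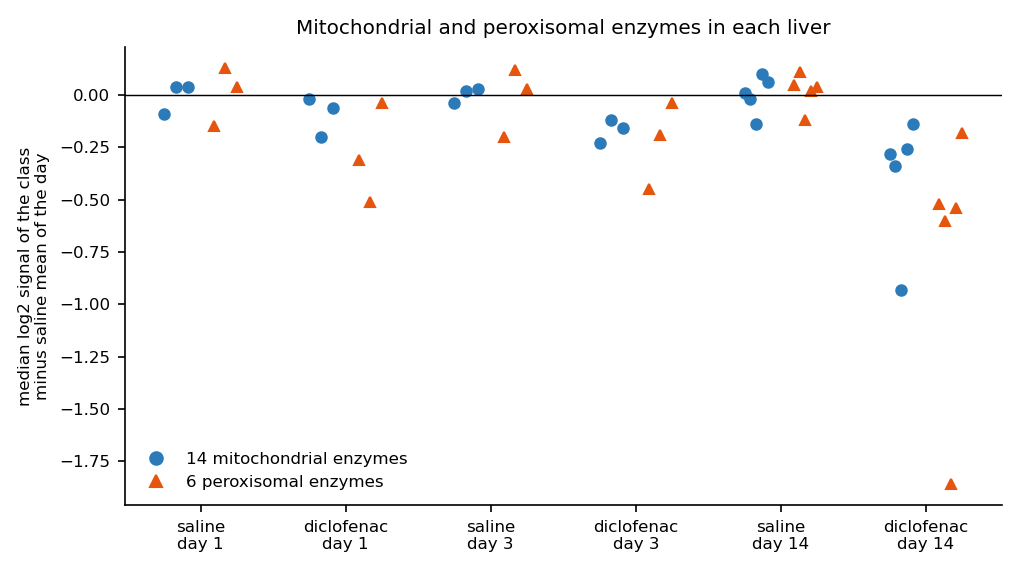
Median over 14 mitochondrial enzymes (circles) and over 6 peroxisomal enzymes (triangles) of the log2 signal minus the saline mean of the day, 1 symbol of each kind per liver. The saline livers stay close to 0, and in the 5 diclofenac livers of day 14 each triangle lies lower than the circle of the same liver, down to -1.86.

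The response to diclofenac was also compared between days. The effect at day 3 minus that at day 1 passed in 0 of 33 members (0.0% of all genes), with a smallest adjusted p of 0.881 in limma and 4 members at an unadjusted p under 0.05, all with the lower value at day 3 (2.71% of all genes). The effect at day 14 minus the mean of the early effects was below 0 in 32 of 33 members, against 52.1% of all genes, with a median of -0.32 against -0.02. It passed in 0 (0.0225% of all genes), and 5 members (Cpt1a, Cpt2, Hadha, Acot4 and Pex11a) had an unadjusted p under 0.05, all lower (3.35% of all genes). Without the pair of low livers it was below 0 in 26 members, with a median of -0.11. Among those 5 members Pex11a had the largest difference with all livers kept, at -0.79 ± 0.32 (SE) with an adjusted p of 0.699 in limma. In the mean of the effects of days 1 and 3, 0 of 33 members passed (0.675% of all genes), 11 had an unadjusted p under 0.05, all lower (8.3% of all genes), and the smallest adjusted p was that of Acot1, 0.0565 at a difference of -1.22 ± 0.27 (SE).

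More members passed between the saline groups of different days than between saline and diclofenac. From days 1 and 3 to day 14, 20 of 33 members rose in saline livers and 0 fell, where 12.4% of all genes rose and 16.0% fell, and the median of the members was 0.60 against -0.06 over all genes. In 21 members all 5 saline livers of day 14 lay above all 6 of days 1 and 3, against 9.83% of all genes, and in 1, Acads, they lay below, against 12.4%. The largest rises were those of Acot1, from 1180, 1494 and 1413 and 2243, 2659 and 2750 to 7000, 10564, 7382, 9621 and 8346, or 4.57-fold, and of Ehhadh, from 7652, 9890 and 9323 and 7621, 11507 and 9420 to 37574, 32716, 33947, 41579 and 36444, or 3.97-fold. In both the day 14 livers lay far above the earlier ones. Their log2 differences were 2.19 ± 0.655 (SE) and 1.99 ± 0.45 (SE), with limma adjusted p of 0.0158 and 0.00219. Pdk4 rose 3.85-fold (adjusted p 0.000197 in limma), Acot4 3.58-fold, from 228, 252 and 160 and 147, 193 and 191 to the day 14 values above, and Vnn1 2.68-fold, from 5169, 4536 and 5422 and 3109, 7268 and 5082. For Vnn1 the livers overlapped, since the lowest of day 14 was 7131.

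Transport and the first steps of the mitochondrial cycle were among the genes that rose in saline livers. Cpt1a went from 6573, 7460 and 6804 at day 1 through 9740, 9874 and 9657 at day 3 to the day 14 values above, 1.95-fold over the early mean (limma adjusted p 9.09e-07), although its other 2 probe sets had adjusted p of 0.906 and 0.999. The step from day 1 to day 3, a log2 difference of 0.49 ± 0.1 (SE), had a limma adjusted p of 0.0753, the smallest of the members, and 0 of 33 passed there (0.217% of all genes), with 4 higher at an unadjusted p under 0.05 (4.24% of all genes). Cpt2 rose 2.28-fold, Acadm, from 15732, 19233 and 17517 and 17076, 19056 and 18245 to 34444, 33252, 27503, 37089 and 33208, 1.85-fold, Etfdh 1.80-fold, Acadl 1.48-fold, Decr1 1.45-fold, Hadha 1.36-fold and Acadvl 1.28-fold. Acadvl, for very long chains, went from 10660, 11525 and 12088 and 11668, 12118 and 12212 to 13822, 13892, 14424, 16944 and 15938, Hadha from 4145, 4258 and 4767 and 4015, 4143 and 3959 to 5015, 5131, 5399, 6359 and 6893, and Decr1 from 9167, 9015 and 9546 and 9843, 9951 and 10201 to 14254, 13042, 12372, 16310 and 14083. All of these day 14 livers lay above the early ones. The members with lower means at day 14 were Ppara, Acads, Acaa2, Bdh1 and Hadh, with log2 differences from -0.34 to -0.10 that did not pass. Without the pair of low livers 26 members passed (38.0% of all genes). That pair is not part of this comparison but enters the shared estimate of its spread. Of the members that passed, 2, Acads and Acaa2, fell (21.4% of all genes), with limma adjusted p of 0.00572 and 0.0362. With all livers kept and every probe set on its own, probe sets disagreed on the call for Acaa2, Hadhb and Cd36. They also disagreed for Acadl, Cpt2, Pex11a, Vnn1, Cpt1a and Fabp1. For Acadl the limma adjusted p was 3.09e-05 in the probe set used and 0.369 in the other, and for Cpt2 7.16e-07 and 0.929. For Pex11a it was 0.000333 and 0.0574, and for Vnn1 0.0298 and 0.0584. For Cd36 it was 0.537 in the probe set used and 0.0333 and 0.635 in the others. The limma adjusted p for Acaa2 was 0.164 in the probe set used and 0.636 and 3.99e-05 in the others. For Hadhb it was 0.728 in the probe set used and 0.000163 and 0.000522 in the others.

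Of the remaining genes, Pex11a rose 2.30-fold, Crat 1.92-fold, Ech1 1.78-fold, Hsd17b4 1.57-fold, Fabp1 1.52-fold, Slc27a2 1.47-fold and Creb3l3 1.26-fold. Ech1 went from 10423, 11002 and 11986 and 10773, 12734 and 12716 to 20386, 20149, 16712, 24474 and 22012, and Slc27a2 from 38696, 44095 and 44994 and 43805, 43322 and 41258 to 66789, 58781, 60137, 66885 and 60989. Hsd17b4 went from 12191, 14511 and 13587 and 11444, 13187 and 13163 to 23987, 23462, 19092, 19949 and 16446, the lowest late liver lying above the highest early one. Fabp1 stood at 56683, 59993 and 58953 and at the day 3 values above, and at 88797, 87131, 79620, 100488 and 96281 on day 14, but its difference was -0.01 after quantile normalization. Its other probe set, with a mean signal of 67218 against 70560, had a limma adjusted p of 0.553. The Fabp1 call was also lost with the mean of all probe sets. Creb3l3 reached 10583, 9689, 9495, 11642 and 10277, Pex11a went from 2008, 2790 and 2676 and 3556, 3443 and 3343 to the day 14 values above, and Crat from 854, 732 and 614 and 493, 648 and 748 to 1614, 548, 1560, 1695 and 1515, where 1 late liver was at 548. Age, number of injections and the handling of the arrays of each day cannot be told apart in this comparison. The array's 18S probe sets lay at 11.76 to 12.41 on the log2 scale in the saline arrays of day 1, 14.54 to 14.76 at day 3 and 15.18 to 15.78 at day 14, and macrophage markers at 16132 to 26010, 20897 to 22902 and 4538 to 11775. Their part in the saline differences was not tested.

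**Figure D5:**
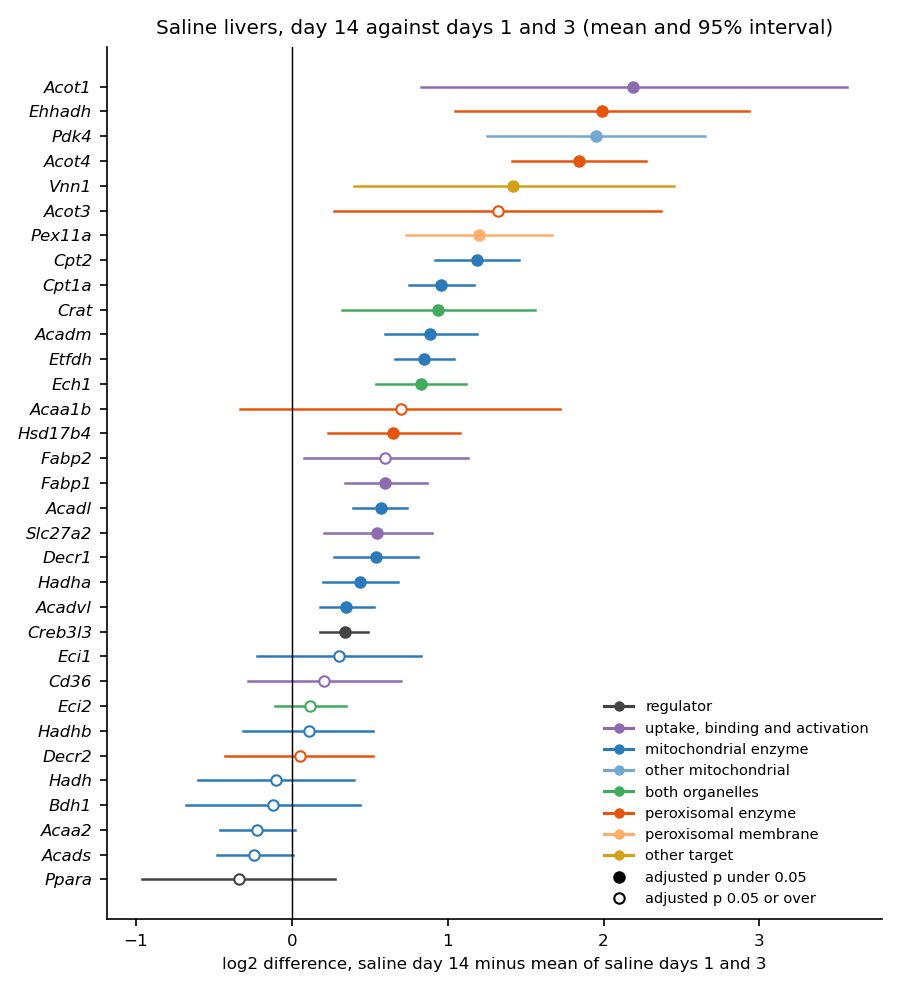
Log2 difference between the saline livers of day 14 and the mean of the saline livers of days 1 and 3 for each member, with the 95% interval from limma; filled points passed an adjusted p of 0.05. All 20 filled points lie right of 0, led by Acot1 at 2.19, Ehhadh at 1.99 and Pdk4 at 1.95.

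The wider pathway was read from a list of 104 other genes of fatty acid oxidation, ketone body synthesis, peroxisome assembly, PPARα targets and its partners, of which 91 were measured. In the mean of the 3 days 89 were tested, 72 had a lower mean (50.8% of all genes), the median was -0.16, 3 fell (0.442% of all genes) and 0 rose (1.24%). Of 14 other mitochondrial oxidation genes 13 were lower (median -0.21), and of 17 other peroxisomal oxidation genes 15 (median -0.16), with 0 passing in either. The median of 12 peroxisome assembly genes was -0.06 and that of 18 receptors and cofactors -0.18, again with 0 passing. The 2 other genes of ketone body synthesis and export that were tested went different ways in mean, Slc16a1, a monocarboxylate transporter, by 0.41 ± 0.19 (SE) and Bdh2 by -0.13 ± 0.16 (SE), and neither passed (limma adjusted p 0.254 and 0.689). The 3 that fell were Cidec, a lipid droplet protein and PPAR target, Txnip, a thioredoxin binding protein that responds to glucose, and Me1, the malic enzyme that makes NADPH. Cidec was 929, 293, 480, 1024 and 508 in saline and 121, 175, 70.4, 174 and 82 in diclofenac livers at day 14, without overlap, a log2 difference of -2.33 ± 0.371 (SE) (limma adjusted p 0.0675). At days 1 and 3 its signal was at most 68.1, below the median signal of every array (75.2 to 89.9), and it was not tested there, so that its call over the 3 days (-1.38 ± 0.305 (SE), limma adjusted p 0.0213) takes in 2 days of signals that low. Me1 was 5853, 6232, 4855, 6503 and 5785 against 4024, 3262, 1740, 3558 and 4098 at day 14, without overlap, and 5748, 6117 and 5411 against 4963, 4747 and 4949 at day 3, also without overlap. Its difference over the 3 days was -0.55 ± 0.138 (SE) (limma adjusted p 0.0443) and that of Txnip -0.59 ± 0.134 (SE) (adjusted p 0.024), with 1623, 2834, 2497, 2920 and 1951 against 1380, 933, 1051, 1096 and 1986 at day 14.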

How the data were processed

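RNA of 22 mouse livers, in 6 groups of saline or diclofenac at 3 times, was hybridised to Affymetrix Mouse 430 2.0 arrays. The authors computed MAS5 signals and deposited them as linear intensities, scaled so that each array had a trimmed mean of 500.0 with 2% left out at either end. Other MAS5 settings are not given in the sources used here, and detection calls were not used. Of 45101 probe sets, 34958 carried 1 gene symbol, 932 several and 9211 none in the platform annotation. Only the first were used, and each of 18194 genes was represented by its probe set of highest mean log2 signal.

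A gene was tested where its signal passed the median of the array on 3 or more arrays of the model. This left 12884 genes for days 1 and 3, 11884 for day 14 and 13340 for all arrays, with 33 of 33 measured members each time. Models were fitted to log2 signals with limma 3.58.1 (R 4.3.3), with a variance trend, on the 12 arrays of days 1 and 3, the 10 of day 14, or all 22 for means and differences over days. Tests were two-sided, with Benjamini-Hochberg adjustment over all genes tested and a threshold of 0.05, and the fits were tested on simulated data. The number of arrays limits the precision. Exact permutation tests of single genes used scipy 1.17.1 in Python 3.11.15, and tables used numpy 2.4.6 and pandas 2.3.3.

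The members, their classes and the lists of pathway genes and markers were chosen with earlier results of these data known, so no list was given a test. Values per liver are given for members that passed a comparison, for those without overlap on at least 2 days in one direction and for the 3 largest rises and falls of each day. Ppara was always described, and some others were named after their values were seen. The alternatives were other filters, quantile or median scaling, adding the array median before log2, other uses of probe sets, other sets of arrays, array weights, replicate number as a block, the t-test named in the methods (Welch's) and leaving out each array in turn. Leaving out the pair of low livers was chosen after seeing the data. Replicate numbers gave little sign of pairing: residuals of equally numbered saline and diclofenac livers correlated above 0.1 in 1 of 11 pairs, from -0.16 to 0.13. Such correlations cannot show whether animals were handled in numbered sets. Promoters came from RefSeq on GRCm38.p6, matched by symbol for 29 of 34 members.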

Additional observations from a re-analysis of the deposited data

Results flagged for a closer look

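In 66 groups of 5 livers at day 14, the lowest or highest log2 signal was compared with its nearest neighbour. The gap was taken as a share of the group's range on the log2 scale, where chance marks about 1 group in 20. Signals printed beside the shares are linear. The test marked 13 groups, 12 of them diclofenac groups in which the replicate 3 liver was the lowest. These 12 marks are of 1 liver, which had already been picked out for low signals of these same members. The groups share the same arrays, so the marks are not independent and add no support to that choice. The gap took 0.931 of the range for Ehhadh, 0.92 for Slc27a2 (28467 against a next value of 64089), 0.886 for Acads (1826 against 2883), 0.84 for Decr1 (6559 against 11432), 0.838 for Acaa1b and 0.801 for Acot1. It took 0.792 for Decr2 (946 against 2647), 0.785 for Eci1, 0.76 for Hadh, 0.739 for Vnn1, 0.735 for Cpt1a and 0.717 for Etfdh. In the saline group the 1 marked value was that of Crat in replicate 2, at 548 against a next value of 1515, with a share of 0.9.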

How the results depend on the processing

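At day 1, in the difference of the effects of days 3 and 1 and in that of day 14 and the early days, 0 members passed under every setting tried. At day 3, where 0 passed, 2 did with each day on its own arrays (Acot1 and Fabp2), 1 with array weights (Acot1), 2 in the methods' t-test (Acot1 and Fabp2), and 0 to 3 with an array left out. The highest count came without the day 1 diclofenac liver of replicate 2. At day 14, where 0 passed, 3 did with all 22 arrays in one model (Acadl, Cpt2 and Etfdh), 1 with array weights (Cpt2), 4 in the methods' t-test (Acot3, Acot4, Cpt2 and Fabp2), and 0 to 1 with an array left out. That t-test passed 188, 321 and 284 genes at days 1, 3 and 14, against 0, 26 and 0 in limma. The mean of days 1 and 3 had 0, then 1 with the array median added (Acot1), 2 with array weights and 0 to 3 with an array left out, the highest again without that day 1 liver.

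The 2 members of the mean of the 3 days became 1, Fabp2, without the filter, with median centring, with the mean of all probe sets and with the replicate block. They became 7 with array weights, 9 without the pair of low livers, and 0 to 10 with an array left out: 0 without the day 3 diclofenac liver of replicate 1, 10 without the day 14 one of replicate 3 and 4 without that of replicate 5. Fabp2 passed in 31 of 32 settings, with adjusted p from 0.00201 to 0.052 in limma, and Acadl in 15, with adjusted p from 0.0117 to 0.298. Leaving out 1 array ended the call of Acadl for 13 of 22 arrays.

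In saline livers 0 members passed from day 1 to day 3, 3 with every probe set on its own (Acaa2, Hadh and Ppara), 1 with array weights (Cpt1a) and 0 to 1 with an array left out. From the early days to day 14 the 20 members became 17 to 25 with an array left out, and 10 of the 20 passed under every setting. Median centring moved all genes by -0.11 there and left 14. Quantile normalization turned Fabp1 to -0.01. The organelle gap ranged from -0.40 to -0.06 at day 1, from -0.20 to 0.09 at day 3 and from -0.65 to -0.20 at day 14 with a liver left out, the last without the replicate 3 liver. The causes of these shifts were not tested. Replicate numbers gave little sign of pairing, and apart from that of Acadl the replicate block ended no call of a member between diclofenac and saline. Signals carry no detection calls, so low members such as Acot4 and Pdk4 are less certain.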
